A study of Arabidopsis thaliana with 18 samples.

Results

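The 3 kinase genes SNRK2.2 (AT3G50500), SNRK2.3 (AT5G66880) and OST1 (AT4G33950, also called SNRK2.6) were compared between dry seeds and young seedlings of Arabidopsis thaliana. They were chosen by locus, as the SnRK2 kinases that the plant hormone abscisic acid (ABA) activates strongly, and make up 3 of the 27827 genes in the deposited table. The RefSeq gene table (TAIR10.1) names the 3 loci as above. All material was the ecotype Columbia-0 (Col-0), and the labels name no mutant, transgene or chemical treatment. The 6 groups were dry seeds and seedlings imbibed for 72 h, each as total RNA, monosomal RNA (with single ribosomes) and polysomal RNA (with several ribosomes), with 3 arrays a group. The labels describe freshly harvested dry seed, biological replicates and plants grown in randomized blocks, each replicate being the bulk of 8 plants. A whole seed or seedling is a mix of cell types, so in these bulk samples fewer cells of a type and less RNA per cell cannot be told apart.

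ABA keeps mature seeds dormant and tolerant of drying, and in seedlings and leaves it slows growth and closes stomata under drought. Without the hormone, clade A protein phosphatases 2C (PP2Cs) hold the SnRK2 kinases inactive by binding them and removing phosphate from their activation loop. ABA bound to a PYR/PYL receptor blocks the phosphatase, Raf-like kinases phosphorylate the freed SnRK2s, and these phosphorylate bZIP transcription factors of the ABI5/ABF family, ion channels and an NADPH oxidase. SNRK2.2 and SNRK2.3 are close relatives known mainly for ABA responses in seed germination and root growth. OST1 (OPEN STOMATA 1) is best known for guard cells, where it drives stomatal closure. Plants lacking all of these kinases are almost insensitive to ABA, so their roles overlap.

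Each gene has 1 value per array, a log2 intensity that the submitters made with RMA (robust multi-array average). Arrays were scaled to each other, so a value reflects a transcript's share of its RNA fraction and not an amount. The signal of a gene also depends on the probes that measure it, so levels were compared between groups and not between genes. Array medians lay between 3.05 and 3.17 in dry seed and between 3.44 and 3.65 in seedlings, and the number of arrays limits the precision. The labelled stages matched their markers: all 6 dry seed markers (storage proteins, oleosins, a seed peroxiredoxin) fell and all 6 green seedling markers rose in each fraction. In limma, adjusted over all genes, 62.1% of genes differed between the stages in total RNA, 51.6% in monosomal and 53.6% in polysomal RNA at an adjusted p under 0.05, and calls among the kinase genes are read against these shares. Seedling polysomal replicate 3 stood apart in seed transcripts. The summed dry seed markers, as the log2 of their sum, were 5.99, 5.99 and 9.41 on the seedling polysomal arrays and 8.41, 7.29 and 6.20 on the seedling monosomal arrays for replicates 1, 2 and 3. On the seedling total arrays they lay between 5.89 and 6.11, and in dry seed between 13.88 and 14.15.

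Between dry seed and seedling the 3 kinase genes went different ways. SNRK2.3 fell in every RNA fraction, OST1 rose in every fraction, and the change of SNRK2.2 was the smallest of the 3 in each fraction as deposited, an order that turned with loess scaling in polysomal RNA (1.2 for SNRK2.2, −0.85 for SNRK2.3). In total RNA 2 of the 3 genes were called, 1 in each direction, and in monosomal and polysomal RNA all 3 were called, with 2 rises and 1 fall. Each of the 3 genes had groups that did not overlap between the stages in every fraction, as did 66.8% of all genes in total, 53.9% in monosomal and 61.5% in polysomal RNA.

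**Figure D1:**
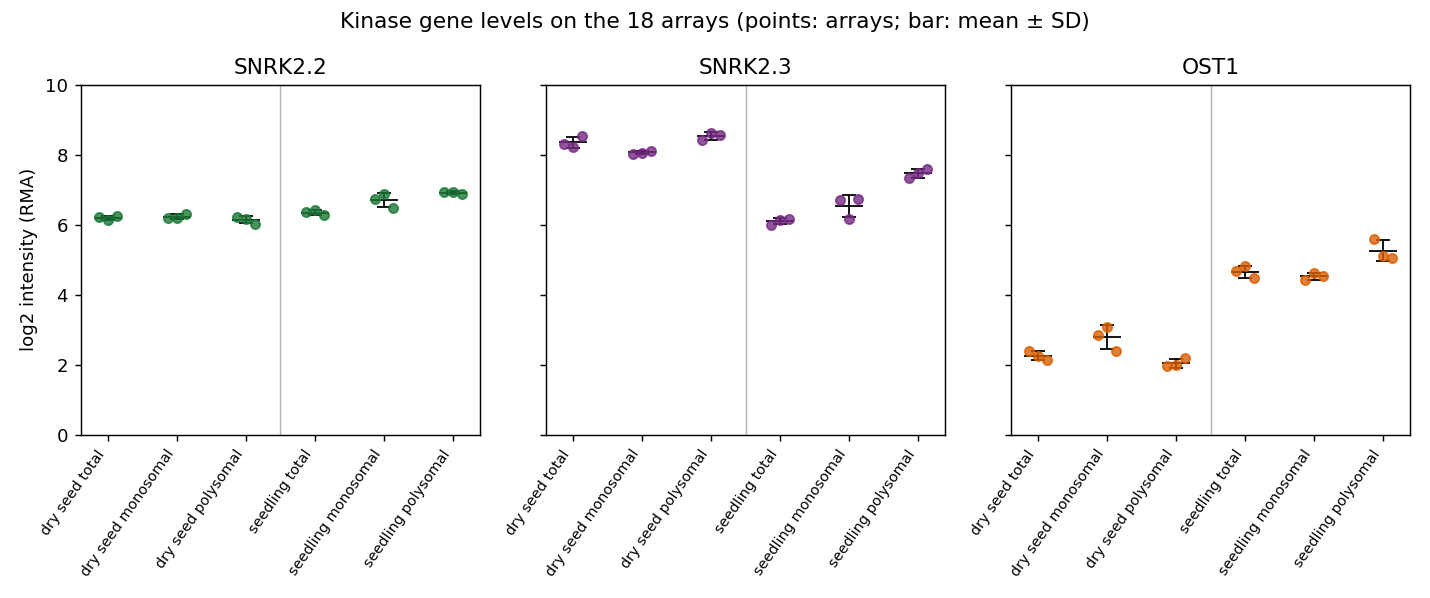
Log2 intensity (RMA) of SNRK2.2, SNRK2.3 and OST1 on each of the 18 arrays, by group, with points for arrays and a black bar for the mean ± SD of 3. Each panel is read across groups, since levels of different genes are not comparable. SNRK2.3 lies at 8.04 or above on every dry seed array and at 7.61 or below on every seedling array, OST1 runs the other way, and SNRK2.2 stays between 6.03 and 6.94.

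SNRK2.3 had its highest values in dry seed. In dry seed total RNA the arrays read 8.30, 8.24 and 8.53, and in seedling total RNA 6.01, 6.14 and 6.16. The groups did not overlap, and the gene fell by 2.25 on the log2 scale (SE 0.18, adjusted p = 1.20e-09), a 4.77-fold lower signal. A fall at least as deep as that of SNRK2.3 was seen in 5.21% of all genes in total RNA, 11.4% in monosomal and 18.4% in polysomal RNA. On monosomal arrays the values were 8.04, 8.05 and 8.12 in dry seed and 6.70, 6.18 and 6.73 in seedlings, again without overlap (change −1.54, SE 0.18, adjusted p = 3.16e-07). On polysomal arrays they were 8.42, 8.63 and 8.58 in dry seed and 7.35, 7.47 and 7.61 in seedlings (change −1.07, SE 0.18, adjusted p = 3.10e-05). The loss was thus deepest in total RNA and shallowest on polysomes, where the signal was 2.1-fold lower. Between fractions, the loss differed at a called level only for polysomal against total RNA (1.19, adjusted p = 0.00671 in limma). The place of monosomal RNA was not settled, with 0.72 for monosomal against total (adjusted p = 0.0518) and 0.47 for polysomal against monosomal RNA (adjusted p = 0.269). Among the seedling polysomal arrays the highest value stood on replicate 3, the array with the most seed transcripts, and without it the polysomal change was −1.13 (adjusted p = 8.47e-05).

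OST1 ran in the opposite direction. Its dry seed values were 2.4, 2.26 and 2.12 in total RNA, 2.85, 3.08 and 2.4 in monosomal RNA and 1.96, 1.98 and 2.2 in polysomal RNA. All 9 of these lay below the median of their array. No detection call was used here, so how far such low values exceed background is not known, and folds from them are uncertain. In seedlings the values were 4.67, 4.82 and 4.48 in total, 4.41, 4.62 and 4.54 in monosomal and 5.6, 5.12 and 5.05 in polysomal RNA, above the array median on all 9 arrays. Every seedling array exceeded every dry seed array. The rise was 2.4 in total RNA (SE 0.20, adjusted p = 3.03e-09), 5.26-fold on the linear scale, 1.75 in monosomal RNA (SE 0.20, adjusted p = 2.93e-07) and 3.21 in polysomal RNA (SE 0.20, adjusted p = 3.91e-11), 9.26-fold. A rise at least as large as that of OST1 was seen in 8.08% of all genes in total RNA, 11.2% in monosomal and 4.52% in polysomal RNA.

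SNRK2.2 was nearly level in total RNA, with 6.21, 6.14 and 6.25 in dry seed and 6.36, 6.41 and 6.27 in seedlings. These ranges did not overlap, but the difference of 0.15 (SE 0.16, adjusted p = 0.426) was not called, and its 95% interval ran from −0.18 to 0.48. On monosomal arrays the gene read 6.19, 6.20 and 6.31 in dry seed and 6.73, 6.88 and 6.49 in seedlings (change 0.47, SE 0.16, adjusted p = 0.0181). On polysomal arrays it read 6.22, 6.18 and 6.03 against 6.94, 6.94 and 6.88 (change 0.78, SE 0.16, adjusted p = 0.000265), a 1.72-fold rise with all seedling arrays above all dry seed arrays. These small changes depend on how the arrays are scaled. Centring each array on its median moved the median change of all genes from −0.17 to −0.67 in total RNA, and the change of SNRK2.2 to −0.36 (adjusted p = 0.0529, range 0.00854 to 0.596 over its alternatives). It also ended the calls of SNRK2.2 in monosomal (0.11, adjusted p = 0.601, range 7.13e-05 to 0.601) and polysomal RNA (0.34, adjusted p = 0.0707, range 1.35e-06 to 0.0707). Loess scaling between arrays moved SNRK2.2 the other way, to 0.50 in total RNA, where the rise was then called (adjusted p = 0.00854), 0.87 in monosomal (adjusted p = 7.13e-05) and 1.2 in polysomal RNA (adjusted p = 1.35e-06). The falls of SNRK2.3 and rises of OST1 were called in each of the 12 alternatives tried per fraction.

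**Figure D2:**
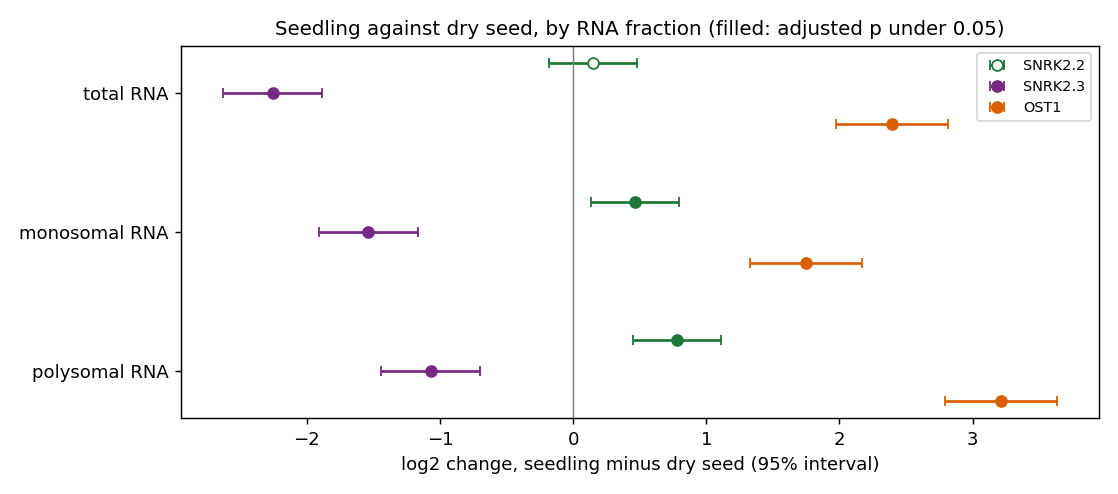
Log2 change from dry seed to seedling (x axis) of each kinase gene in total, monosomal and polysomal RNA, as the limma estimate with its 95% interval and filled points for adjusted p under 0.05. SNRK2.3 lies left of zero and OST1 right of zero in all fractions, while the open point is SNRK2.2 in total RNA at 0.15.

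Setting one kinase gene against another on the same array removes an offset that both genes share. It does not remove an array effect that differs between genes. In polysomal RNA, loess scaling moved SNRK2.2 from 0.78 to 1.2 and SNRK2.3 from −1.07 to −0.85. The differences below were not recomputed with other scalings. Between dry seed and seedling, SNRK2.3 fell against OST1 by 4.65 log2 units in total RNA, by 3.28 in monosomal and by 4.28 in polysomal RNA. SNRK2.2 gained on SNRK2.3 by 2.4, 2.0 and 1.85 in these fractions, whereas its change against OST1 was −2.25, −1.28 and −2.43. For each of these 9 differences the 3 seedling arrays lay apart from the 3 dry seed arrays, and the exact two-sided permutation test gave p = 0.1 (adjusted p = 0.1 over the 9), the smallest that 3 arrays against 3 can give. How many other gene pairs are separated in this way was not computed. Of single genes, 66.8% did not overlap between the stages in total, 53.9% in monosomal and 61.5% in polysomal RNA. The differences between kinase genes show unequal change and do not show which gene stayed constant.

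**Figure D3:**
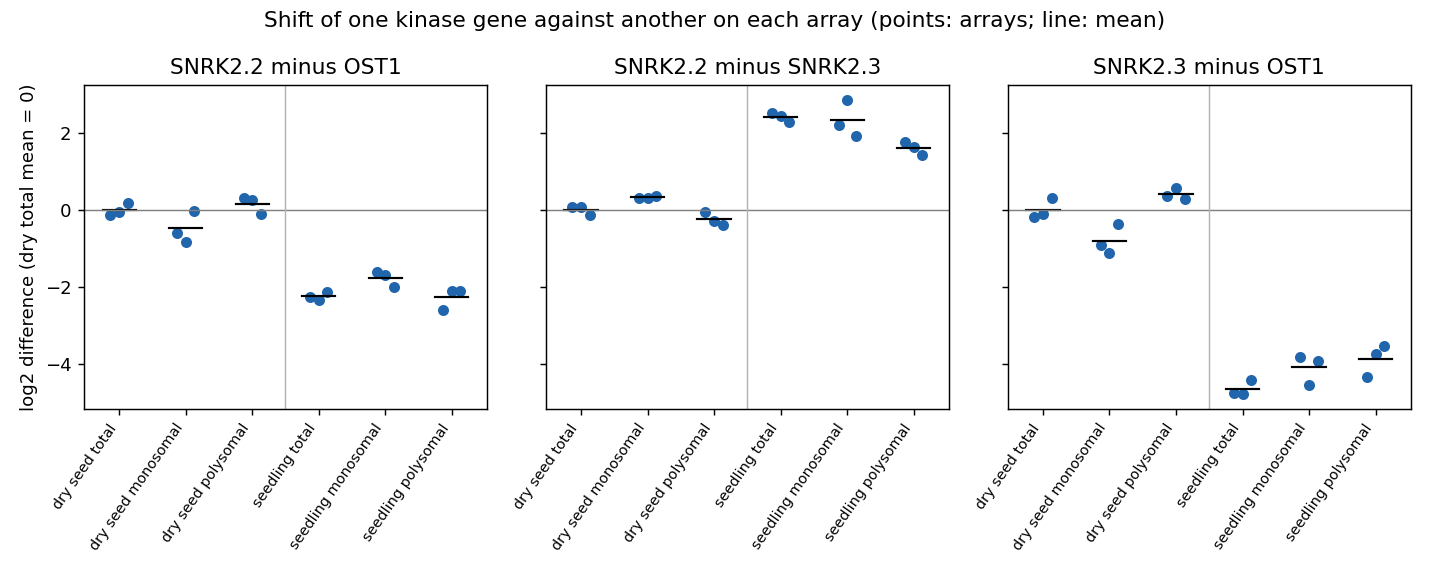
Difference of log2 intensities of a pair of kinase genes on each array (y axis, with the mean of the dry seed total arrays set to 0), by group, with points for arrays and a line for the mean. All seedling arrays stand apart from all dry seed arrays in each pair, with SNRK2.3 against OST1 between −4.77 and −3.54 in seedlings. The share of other gene pairs that do so was not computed.

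Within dry seed 1 difference between fractions was called for these genes, that of OST1 between polysomal and monosomal RNA. No kinase gene was called between monosomal and total RNA in limma, where 6.21% of all genes were called, and 1 had an unadjusted p under 0.05. This was OST1, higher by 0.52 in monosomal RNA (SE 0.20, adjusted p = 0.148). Between polysomal and total RNA, with 4.65% of genes called, again 0 of 3 passed and 0 had an unadjusted p under 0.05. The 95% intervals of that difference ran from −0.39 to 0.27 for SNRK2.2, from −0.18 to 0.56 for SNRK2.3 and from −0.64 to 0.21 for OST1. Between polysomal and monosomal RNA, where 19.0% of genes were called, OST1 alone of the 3 was called. It was lower on polysomes by 0.73 (95% interval −1.15 to −0.31, SE 0.20, adjusted p = 0.0147), at values that were all below the array median. The call ended without dry seed monosomal replicate 2 (−0.58, adjusted p = 0.0818), polysomal replicate 1 (adjusted p = 0.0586) or polysomal replicate 2 (adjusted p = 0.0520), within a range of 0.00389 to 0.0818 over its alternatives. SNRK2.3 was higher on polysomes than on monosomes by 0.47 with no overlap, which 40.3% of all genes shared in this comparison (SE 0.18, adjusted p = 0.0703), and it was called with a trend and robust variance prior (adjusted p = 0.0210, range 0.0210 to 0.178).

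In seedlings all 3 kinase genes were higher in polysomal than in total RNA, a comparison in which 20.5% of all genes were called in either direction. SNRK2.3 stood out by size, with 7.47 ± 0.13 (SD, n = 3) on polysomes against 6.10 ± 0.08 in total RNA. The difference was 1.37 (SE 0.18, adjusted p = 2.15e-05), 2.59-fold, and 0.532% of all genes had a difference at least as large in this direction. It was 1.31 (adjusted p = 0.000239) without seedling polysomal replicate 3. SNRK2.2 read 6.92 ± 0.04 against 6.35 ± 0.07 (difference 0.57, SE 0.16, adjusted p = 0.0145), and OST1 5.26 ± 0.30 against 4.66 ± 0.17 (difference 0.60, SE 0.20, adjusted p = 0.0402). None of the 3 genes overlapped between these groups, and neither did 41.3% of all genes. The SNRK2.2 call ended without seedling total replicate 3 (0.54, adjusted p = 0.0508, range 0.00521 to 0.0508). The OST1 call was less firm: it held in 5 of 12 alternatives and was lost in 5 of the 6 fits that left out an array, down to 0.43 (adjusted p = 0.188, range 0.0179 to 0.188) without polysomal replicate 1, the array with the highest OST1 value.

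Seedling polysomal RNA was also compared with monosomal RNA, where 19.1% of genes were called. SNRK2.3 was higher on polysomes by 0.94 (SE 0.18, adjusted p = 0.00142) and OST1 by 0.73 (SE 0.20, adjusted p = 0.0162), while SNRK2.2 differed by 0.22 (SE 0.16, 95% interval −0.11 to 0.55, adjusted p = 0.332). The OST1 call ended without polysomal replicate 1 (0.56, adjusted p = 0.0897, range 0.0122 to 0.0897) and when only these groups were fitted (adjusted p = 0.0696). Between monosomal and total RNA of seedlings 31.8% of genes were called and none of the 3 kinase genes, with 2 at an unadjusted p under 0.05 in limma. SNRK2.2 was higher by 0.35 (adjusted p = 0.0959) and SNRK2.3 by 0.43 (adjusted p = 0.0689), and both passed after median centring of each array (adjusted p = 0.0168, range 0.0168 to 0.261, and adjusted p = 0.0158, range 0.0158 to 0.207). OST1 differed by −0.13 (95% interval −0.55 to 0.29), a sign that turned with that scaling and with loess scaling.

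**Figure D4:**
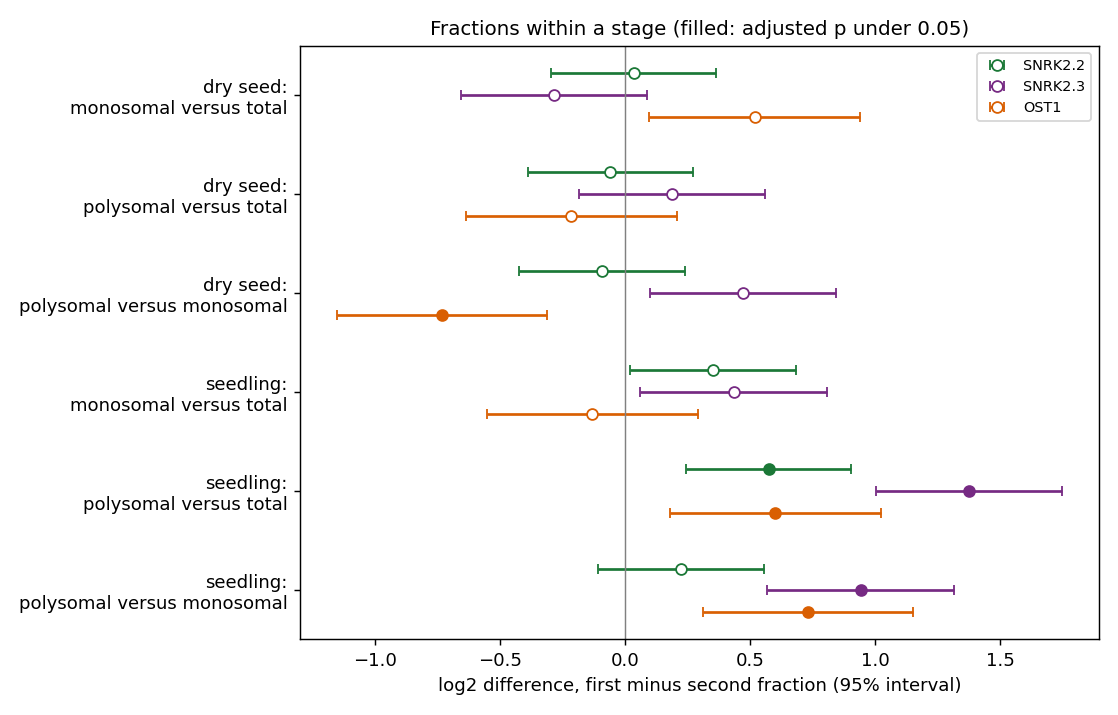
Log2 difference between RNA fractions within each stage (x axis, first minus second fraction) for the kinase genes, with 95% intervals and filled points for adjusted p under 0.05. The seedling polysomal against total row has all 3 genes to the right of zero, with SNRK2.3 at 1.37, whereas the same row in dry seed has all intervals across zero.

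Whether a fraction difference itself changed from dry seed to seedling was tested as the difference of differences. For polysomal against total RNA, where 9.00% of genes were called, SNRK2.3 moved towards polysomes by 1.19 (SE 0.25, adjusted p = 0.00671). SNRK2.2 (0.63, SE 0.22, adjusted p = 0.0805) and OST1 (0.82, SE 0.28, adjusted p = 0.0765) did not pass, although OST1 did with loess scaling (1.06, adjusted p = 0.0270, range 0.0270 to 0.178). For polysomal against monosomal RNA, where 10.5% of genes were called, OST1 moved towards polysomes by 1.46 (SE 0.28, adjusted p = 0.00319), from a lower polysomal value in dry seed to a higher one in seedlings. SNRK2.2 (0.32, adjusted p = 0.430) and SNRK2.3 (0.47, adjusted p = 0.269) were not called there. Both called shifts were called in all 18 alternatives. The OST1 shift rests in part on dry seed values that all lay below their array median. How far those values exceed background is not known. For monosomal against total RNA, where 19.1% of genes were called, 0 of the 3 passed in limma and 2 had an unadjusted p under 0.05. These were SNRK2.3 (0.72, SE 0.25, adjusted p = 0.0518), which passed in 4 of 18 alternatives, and OST1 (−0.65, SE 0.28, adjusted p = 0.115). Shifts towards polysomes were not particular to these genes. Of the 7 other SnRK2 kinases, 2 were called higher and 0 lower for polysomal against total RNA (median 0.62, all genes 0.10). For polysomal against monosomal RNA 3 were called higher and 0 lower (median 0.90, all genes −0.02). For monosomal against total RNA 0 were called higher and 1 lower.

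Ordered by level, SNRK2.3 was highest in dry seed polysomal RNA (8.54 ± 0.11), then dry seed total (8.35 ± 0.15) and monosomal RNA (8.07 ± 0.04), and these neighbours were not separated by the fit. The step down to seedling polysomal RNA was separated (0.60, adjusted p = 0.00791, with 53.8% of genes called between those groups), and so was the next step, to seedling monosomal RNA (6.53 ± 0.31). Seedling total RNA was lowest, and that last step was not separated (0.43, adjusted p = 0.0689 in limma). For OST1 the order began with seedling polysomal RNA, followed by total and then monosomal RNA (4.52 ± 0.11), of which polysomal was separated from total RNA while total and monosomal RNA were not separated. The step of 1.75 down to dry seed monosomal RNA (2.78 ± 0.34) was separated, and dry seed total (2.26 ± 0.14) and polysomal RNA (2.05 ± 0.13) lay below it without separation. SNRK2.2 descended from seedling polysomal over seedling monosomal (6.70 ± 0.20) and seedling total RNA to the dry seed groups (6.23 ± 0.07 monosomal, 6.20 ± 0.05 total, 6.14 ± 0.10 polysomal). No neighbouring groups in that order were separated, and the seedling total and dry seed monosomal ranges overlapped.

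The patterns across arrays can be described by their correlation over the 18 arrays. These share 2 stages and 3 fractions, so that a large stage difference alone can give a high correlation. SNRK2.3 and OST1 correlated at −0.80, SNRK2.2 and OST1 at 0.82, and SNRK2.2 and SNRK2.3 at −0.48. The genes most like SNRK2.3 were AT1G03030 (r = 0.98), MGL (AT1G64660, a methionine gamma-lyase, r = 0.98) and PP2C74 (AT5G36250, a protein phosphatase 2C outside clade A, r = 0.98). Group means of MGL ran from 8.96 in dry seed polysomal to 5.53 in seedling total RNA. The genes most like OST1 were TXND9 (AT2G18990, r = 0.99), HAT1 (AT4G17460, a homeodomain-leucine zipper factor, r = 0.98) and FER1 (AT5G01600, an iron storage ferritin, r = 0.98). For SNRK2.2 they were AT5G02540 (r = 0.96), HB52 (AT5G53980, a homeobox gene, r = 0.94) and OVA6 (AT5G52520, r = 0.94).

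The other 7 SnRK2 kinases, which ABA activates weakly or not at all, also moved apart. In total RNA 3 rose and 1 fell (median change 0.22 beside −0.17 for all genes, and −0.29 beside −0.67 after median centring). SNRK2.5 (AT5G63650) rose by 3.39 (adjusted p = 2.36e-09), SNRK2.1 (AT5G08590) by 2.01 and SNRK2.7 (AT4G40010) by 1.32, while SNRK2.10 (AT1G60940) fell by 1.92 (adjusted p = 7.78e-09). In monosomal RNA 3 rose and 2 fell, SNRK2.4 by 1.93 (adjusted p = 8.17e-07 in limma) and SNRK2.10 by 1.88. In polysomal RNA 5 rose and 1 fell. Of all genes, 62.1% were called in total, 51.6% in monosomal and 53.6% in polysomal RNA, in either direction. SNRK2.10 read 8.64 ± 0.03 in dry seed total and 6.73 ± 0.25 in seedling total RNA, which puts it beside SNRK2.3 among the 10 kinase genes as a fall in all fractions. SNRK2.4 (AT1G10940), with 7.20 ± 0.01 in dry seed monosomal RNA, was the 1 other kinase called within dry seed, higher than in total RNA by 1.05 (adjusted p = 0.0117) and lower on polysomes than on monosomes by 1.45 (adjusted p = 0.000346), a difference of the same sign as that of OST1. In seedlings 4 of the 7 were higher in polysomal than in total RNA and none was lower, beside 20.5% of all genes called in either direction, with SNRK2.7 at 1.90 (adjusted p = 2.70e-05), SNRK2.5 at 1.06, SNRK2.9 (AT2G23030) at 0.80 and SNRK2.10 at 0.59. SNRK2-8 (AT1G78290) had a total RNA change of 0.22 (adjusted p = 0.456).

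The kinases' partners were counted in the same fit. Of all genes, 62.1% were called in total, 51.6% in monosomal and 53.6% in polysomal RNA, in either direction. The median change of all genes was −0.17 in total, 0.03 in monosomal and −0.03 in polysomal RNA. Of 14 ABA receptor genes, which sense the hormone upstream, 5 rose and 7 fell in total RNA (median −0.25), with PYL4 (AT2G38310) up by 5.49 and the neighbouring copies PYL11 and PYL12 down by 4.32 and 4.45. Of 9 clade A PP2C genes, the direct inhibitors of the kinases, 8 fell and 1 rose in each fraction, with medians of −2.85 in total, −2.51 in monosomal and −3.02 in polysomal RNA. AHG1 (AT5G51760), a seed phosphatase, fell by 6.37 and HAI2 (AT1G07430) by 5.27 in total RNA, and the exception was ABI1 (AT4G26080, 1.23, named after its value was seen). Of 12 upstream kinase genes, Raf-like kinases and the GSK3-like kinase BIN2, 4 rose and 4 fell in total RNA (median −0.33), with AT3G06630 at −4.20 and AT5G11850 at 2.42. In monosomal RNA 6 of them rose and 3 fell, and the median turned to 0.54. All 8 bZIP genes, whose products the kinases phosphorylate, changed, 5 falling and 3 rising in total RNA (median −0.93). ABI5 (AT2G36270), the seed member, fell by 5.01 and ABF3 (AT4G34000), a drought response factor, rose by 3.50. Of 12 genes for channels, transporters and other substrates, 6 rose and 4 fell in total RNA (median 0.72), whereas 5 rose and 5 fell in monosomal RNA (median −0.13). Among them were RBOH F (AT1G64060), the NADPH oxidase, which rose by 1.72 in total RNA, and SWEET11 (AT3G48740), a sugar carrier, which rose by 2.51. RAPTOR1 (AT3G08850), among the 4 that fell, changed by −1.89 in total RNA (adjusted p = 3.84e-06 in limma). Of 10 ABA-responsive genes downstream, 8 fell and 1 rose (median −4.19), with the dehydrin gene RAB18 (AT5G66400) falling by 7.56 and KIN2 (AT5G15970), also named after its value was seen, rising by 5.39. KIN1 and KIN2, and PYL11 and PYL12, are near copies, and how the probes separate them is not given in the sources used here. The same limit holds for SNRK2.2 and SNRK2.3, although their values were not identical on any array and moved apart.

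**Figure D5:**
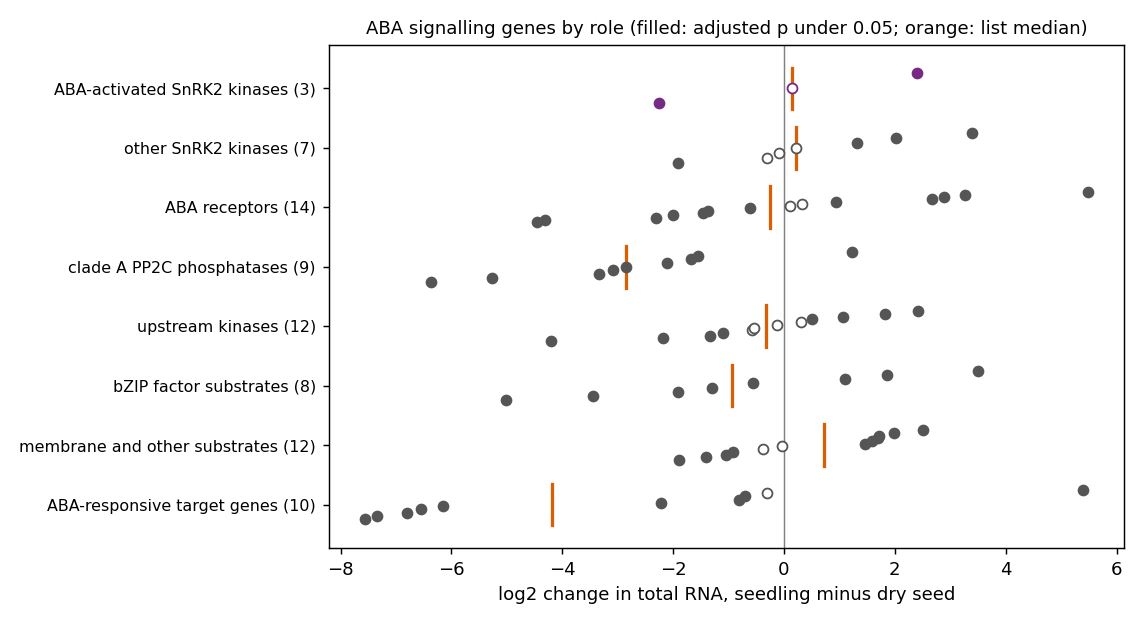
Log2 change in total RNA from dry seed to seedling (x axis) of ABA signalling genes by role, with the number of genes in brackets. Filled points had an adjusted p under 0.05, the orange line is the list median, and points are staggered in height for legibility only. The 3 kinase genes spread from −2.25 to 2.4 around 0.15, while 8 of 9 phosphatase genes and 8 of 10 ABA-responsive genes lie left of zero and were called. Of all genes, 62.1% were called in this comparison, in either direction.

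OST1 is known for guard cells, so guard cell and stomatal lineage markers were read beside it. Of 6 markers, 3 rose in total and monosomal RNA and 4 in polysomal RNA, and none fell, beside 62.1%, 51.6% and 53.6% of all genes called in either direction. The sets differed, with FMA, KAT2 (AT4G18290) and SPCH called in total RNA, and MYB60 (AT1G08810), GORK and SPCH in monosomal RNA. FMA (AT3G24140, also called FAMA) rose by 1.73 in total RNA and SPCH (AT5G53210) by 3.72, whereas HT1 (AT1G62400) had −0.57 and GORK (AT5G37500) −0.15, neither called. The summed level of the list, as log2, ran from 4.63 to 5.14 in dry seed total RNA and from 6.32 to 6.38 in seedling total RNA. Across all dry seed arrays it lay between 4.63 and 5.14, and no marker is listed at 0, the lowest single dry seed value being 1.19. In seedling polysomal RNA it ran from 5.83 to 6.22, and the median difference of the 6 markers from seedling total RNA was −0.01. The part of these markers in the rise of OST1 was not tested. Seed coat and endosperm markers fell in 4 of 6 cases in total RNA, with 1 rise. In monosomal and in polysomal RNA 3 fell and 3 were not called. Their summed level, weighted to the brightest markers, went from between 11.36 and 11.53 in dry seed total to between 6.83 and 7.40 in seedling total RNA. The median of the 6 markers went only from between 3.28 and 3.62 to between 2.26 and 2.65. The part of these markers in the fall of SNRK2.3 was likewise not tested.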

How the data were processed

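RNA of 18 samples (6 groups of 3) was measured on arrays, labelled with the 3' one-cycle kit per the labels' protocols. The deposited values are log2 intensities made by RMA, per the submitters' processing notes, and its version, the platform and the grouping of probes are not given in the sources used here. All 27827 rows were fitted together in limma 3.58.1 (R 4.3.3) with 6 group means and 12 residual degrees of freedom, and 12 comparisons were adjusted by Benjamini and Hochberg over all rows (threshold 0.05). Levels in order were compared among the 15 pairs of groups. The 3 kinase genes and the 12 lists were chosen with earlier results of these data known. Named genes were the members, the other SnRK2 genes, the largest called changes of each list, and the 3 rows most correlated with each member. The fit was tested on simulated data. Deviations of same-numbered arrays of different groups correlated between −0.06 and 0.08 over 45 pairs, none over 0.1. Even so, 14 of the 18 arrays correlated best with an array of the same number. The labels tie the numbers to no batch, so the main fit has no block. Alternatives were scaling, a filter on low rows, the variance prior, fitting only the groups compared, a replicate block and leaving out each array. No promoter or protein sequence was used here.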

Additional observations from a re-analysis of the deposited data

Results flagged for a closer look

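SNRK2.3 was marked because its polysomal to total difference differed between the stages by 1.19 on the log2 scale (difference of differences in limma, SE 0.25, adjusted p = 0.00671). The difference was 0.19 in dry seed and 1.37 in seedlings. OST1 was marked because its polysomal to monosomal difference differed between the stages by 1.46 (SE 0.28, adjusted p = 0.00319), from −0.73 in dry seed to 0.73 in seedlings. Its dry seed values all lay below their array median, and how far they exceed background is not known. Of the 7 other SnRK2 kinases, 2 were called towards polysomes in the polysomal to total shift and 3 in the polysomal to monosomal shift. Of all genes, 9.00% and 10.5% were called there, in either direction. The cause of the shifts of SNRK2.3 and OST1 was not tested.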

How the results depend on the processing

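The falls of SNRK2.3 and rises of OST1 between the stages, the seedling polysomal excess of SNRK2.3 over total and monosomal RNA, its polysomal to total shift and the polysomal to monosomal shift of OST1 kept direction and call under every alternative run. With medians centred, SNRK2.2 between the stages became −0.36 in total, 0.11 in monosomal and 0.34 in polysomal RNA, seedling monosomal against total RNA 0.52 for SNRK2.2, 0.60 for SNRK2.3 and 0.041 for OST1, and the monosomal to total shift of SNRK2.3 0.86. SNRK2-8 and the median of the other SnRK2 genes became −0.29 in total RNA, SNRK2.9 −0.21 in monosomal RNA and the substrate median −0.11 in polysomal RNA. With loess, SNRK2.2 became 0.50 between the stages in total RNA and 0.43 in seedling monosomal against total RNA, OST1 0.018 there and 1.06 in its polysomal to total shift. SNRK2.4 became 0.060 in total and 0.41 in polysomal RNA, SNRK2.9 −0.13 in monosomal RNA and the upstream kinase median 0.070 in polysomal RNA. The monosomal to total shift of SNRK2.3, 0.72, passed without the dimmest genes and with the trend and robust prior. With that prior SNRK2.3 also passed in dry seed polysomal against monosomal RNA (0.47) and seedling monosomal against total RNA (0.43), while OST1 in seedling polysomal against total RNA (0.60) did not. With only the groups compared, SNRK2.2 in monosomal RNA (0.47) and OST1 in seedling polysomal against total (0.60) and monosomal RNA (0.73) did not pass. The cause of these moves was not tested.

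Leaving out 1 array gave these ranges where a call or sign moved. SNRK2.2 ranged from 0.38 to 0.57 between the stages in monosomal RNA, its call ending without seedling monosomal replicate 2. It ranged from −0.0055 to 0.0567 in dry seed monosomal against total RNA and from 0.54 to 0.60 in seedling polysomal against total RNA. SNRK2.3 ranged from 0.34 to 0.61 in seedling monosomal against total RNA and from 0.62 to 0.90 in the monosomal to total shift, passing in both without seedling monosomal replicate 2. OST1 ranged from −0.92 to −0.58 in dry seed polysomal against monosomal RNA, from 0.43 to 0.70 in seedling polysomal against total RNA and from 0.56 to 0.83 against monosomal RNA. SNRK2.9 ranged from −0.046 to 0.32 between the stages in monosomal and from −0.33 to 0.18 in total RNA, SNRK2.4 from −0.34 to 0.10 in polysomal RNA, and SNRK2.1 from −0.017 to 0.42 in seedling polysomal against total RNA.

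A fit with the replicate number as a block changed no call of the 3 kinase genes, for example 0.73 for OST1 in seedling polysomal against monosomal RNA (adjusted p = 0.0175). Of the 18 arrays 14 correlated best with an array of the same number, a hint from the data and not from the labels. Of all genes, 1295 were called in dry seed polysomal against total RNA, but 761 with loess and between 188 and 698 without dry seed polysomal replicate 1, 2 or 3 or total replicate 1 or 2. In dry seed monosomal against total RNA 1727 were called, but 623 with only those groups and between 944 and 1000 without monosomal replicate 2 or 3 or total replicate 2. In seedling polysomal against monosomal RNA 5321 were called and 2299 with only those groups. The polysomal to total shift gave 2504 and 1530 or 1594 without dry seed polysomal replicate 1 or 3, and the polysomal to monosomal shift 2919 and 1835 without replicate 2. Of the other SnRK2 genes 3 in place of 1 fell in total RNA with medians centred.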
